A study of Mus musculus with 12 samples.

Results

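The first step of meiotic maturation in oocytes without the RNA demethylase ALKBH5 was followed by comparing the 2 libraries titled KO and GVBD with the 2 titled KO and GV. These are 4 of the 12 libraries of the series, in which WT and Alkbh5-/- (KO) mouse oocytes were sequenced at 3 stages with 2 libraries per group, and they were taken by genotype and stage as titled. KO denotes a constitutive deletion of Alkbh5 exon 1 with its start codon, made by CRISPR-Cas9 on a C57BL/6 background, and WT the same background without it. Juvenile females were primed with gonadotropin (PMSG), and the oocytes were stripped of cumulus cells, freed of the zona pellucida and pooled, each pool giving 1 library. GV oocytes were taken at the start of culture, and GVBD oocytes after a few hours in M16 medium without the arresting drug milrinone. The deletion was present in every cell of the donor and not in the oocyte alone. Whether KO oocytes were picked by nuclear stage before pooling was not found in the study's methods, so GVBD names a time point here.

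A fully grown oocyte is arrested in prophase with an intact nucleus, the germinal vesicle. When cAMP drops, CDK1 with cyclin B is activated, the nuclear envelope breaks down and a spindle forms. Transcription is largely silent by then, so RNA levels are set mainly by stored maternal transcripts, which are translated, readenylated or cleared. ALKBH5 removes the m6A mark from RNA in the nucleus, and m6A takes part in deciding how long a transcript is kept.

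Total counts were 28557742 and 35556732 in KO GV and 29968490 and 36483055 in KO GVBD, of which between 221927 and 366777 per library fell on the ERCC spike-in sequences, synthetic RNAs added to each tube. Counts are given below after division by the ERCC total of the library relative to the mean of all 12 libraries, and are called scaled counts. Alkbh5 had 260 and 94.4 scaled counts in KO GV and 88.8 and 124 in KO GVBD, against 4812 to 13653 in WT GV and WT GVBD. All 20 oocyte genes checked (zona proteins, Gdf9, Bmp15, maternal effect genes) had at least 10 counts in each of the 4 KO libraries, and their summed scaled counts were 1968958 and 1750321 in KO GV and 2063438 and 1487264 in KO GVBD. Of 26 granulosa and cumulus genes, 6 were at 0 in all 4 KO libraries, and the summed scaled counts were 2809 and 2623 in KO GV and 3728 and 2234 in KO GVBD. The libraries therefore carried the oocyte markers of their label and low levels of follicle cell markers, whose sums overlapped between the groups. Single genes did not all overlap. Of the 10 that passed the filter on low counts, 3 lay lower in both KO GVBD libraries and 3 higher. These are 30% each, against 28.1% and 12.5% of all tested genes.

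The size of the messenger pool differed between the groups by less than the spread of replicates. Endogenous counts per ERCC count were 128 and 111 in KO GV (mean 119 ± 11.6, SD, n = 2) and 121 and 98.5 in KO GVBD (110 ± 15.9, SD, n = 2). The ratio of KO GVBD to KO GV was 0.918, and an exact two-sided permutation test gave p = 0.667, where 2 against 2 libraries cannot go below 0.333. Actb, which encodes cytoskeletal beta-actin, had 2350 and 2138 scaled counts in KO GV and 2213 and 1704 in KO GVBD (log2 fold change −0.20 ± 0.28, SE).

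Few transcripts passed the test for a change, and most of those that did were lower. By edgeR's quasi-likelihood test with Benjamini-Hochberg adjustment, 42 of 19064 tested genes (0.22%) passed an adjusted p under 0.05 with a log2 fold change of at least 1 in size. Of these, 35 fell (0.184% of tested genes) and 7 rose (0.0367%), and at an unadjusted p under 0.05 there were 1207 lower and 252 higher genes. The median log2 fold change over all tested genes was −0.15 with spike-in scaling. With TMM scaling, which centres the genes, it was −0.02 and the counts were 13 lower and 5 higher. By the known roles of their products, sorted after the values were seen, the 35 lower genes comprised 10 of red blood cells, 7 of platelets and 18 others.

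**Figure D1:**
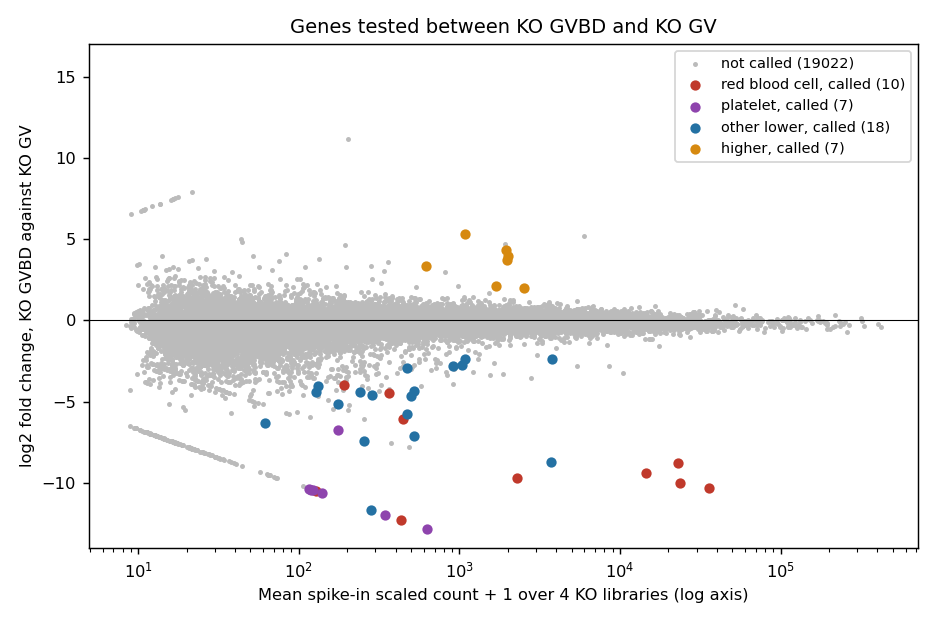
Fold changes between KO GVBD and KO GV for the 19064 tested genes. The horizontal axis is the mean scaled count over the 4 KO libraries plus 1 (log axis) and the vertical axis the fitted log2 fold change; each point is a gene. The 42 called genes are coloured by role group and the other 19022 are grey; called lower genes reach −12.80, and the 9 called genes at 0 in both KO GVBD libraries are placed by fitted values that depend on the prior count.

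Calls depended on single libraries. Without KO GV replicate 1 or without KO GV replicate 2, 7 genes were lower and none higher, and without KO GVBD replicate 1 or 2, 287 or 712 were lower and 22 or 176 higher, the lone library of the group being assumed to vary like the others. Hba-a1, Hba-a2, Hbb-bs, Hbb-bt, Alas2 and Ccno were called lower in all 4 of these fits. In one model over all 12 libraries, Ctla2a was the 1 lower gene called and none was higher. Without overlap between groups, 5349 genes (28.1%) lay lower in both KO GVBD libraries and 2388 (12.5%) higher, which became 4533 and 4130 after TMM scaling.

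The alpha and beta globin mRNAs of adult red cells fell. Hba-a1 (ENSMUSG00000069919, GRCm38 chromosome 11, 32283511 to 32284465, plus strand), an alpha globin gene, had 60240 and 82628 scaled counts in KO GV and 29.6 and 78.2 in KO GVBD. Hba-a2 (ENSMUSG00000069917, chromosome 11, 32296489 to 32297298, plus strand), its near-identical neighbour, had 40202 and 54717 in KO GV and 29.6 and 62.8 in KO GVBD. Unique mapping may divide reads between these copies unevenly, but both groups were separated widely at either gene. The log2 fold changes were −10.33 ± 0.58 (adjusted p = 0.000203) and −9.97 ± 0.51 (adjusted p = 0.000188).

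The beta globins followed the same order. Hbb-bs (ENSMUSG00000052305, chromosome 7, 103826534 to 103828096, minus strand) had 31996 and 59079 scaled counts in KO GV and 87.2 and 120 in KO GVBD (log2 fold change −8.77 ± 0.49, adjusted p = 0.000203). Hbb-bt (ENSMUSG00000073940, chromosome 7, 103812524 to 103813996, minus strand) had 21467 and 36725 in KO GV and 57.6 and 30.8 in KO GVBD (−9.39 ± 0.53, adjusted p = 0.000203). The embryonic globins Hba-x and Hbb-bh1 were at 0 in all 4 KO libraries, and Hbb-y had 4 counts in KO GV replicate 1 and 0 in the other 3. Alas2 (ENSMUSG00000025270, chromosome X, 150547375 to 150570638, plus strand), which catalyses the first step of haem synthesis in red cell precursors, had 3696 and 5433 in KO GV and 6.58 and 4.41 in KO GVBD (−9.70 ± 0.48, adjusted p = 0.000188). In pooled lysates, fewer cells of a type and less RNA per cell cannot be told apart.

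To show what the genes of this group hold at their starts, RefSeq promoters (GRCm38.p6, 250 bases before to 50 after the start) were searched for the GATA motif, the letters AGATAA or TGATAA on either strand, which factors of the red cell and platelet lineages are known to bind. Of the 10 red blood cell genes, 5 matched the promoter table (Car2, Slc25a37 and Slc4a1 were among those that did not), and 4 of the 5 held the motif, Hba-a1 and Hba-a2 being near-identical copies. Of the 7 platelet genes, 5 matched and 1, Pf4, held it. Of the matched genes of the other groups, 4 of 12 other lower genes (33.3%) and 2 of 5 higher genes (40%) held it. The motif stood in 18.6% of the 32841 promoters of this length, a share counted by promoter where the groups were counted by gene. A match is a description of letters and not a measured binding site. The promoters of Hba-a1 (chr11:32283422-32283721, plus strand), Hbb-bs (chr7:103827879-103828178, minus strand) and Alas2 (chrX:150547167-150547466, plus strand) are shown 5′ to 3′ with the motif in capitals, because these are among the transcripts that fell in every leave-one-out fit.
Hba-a1: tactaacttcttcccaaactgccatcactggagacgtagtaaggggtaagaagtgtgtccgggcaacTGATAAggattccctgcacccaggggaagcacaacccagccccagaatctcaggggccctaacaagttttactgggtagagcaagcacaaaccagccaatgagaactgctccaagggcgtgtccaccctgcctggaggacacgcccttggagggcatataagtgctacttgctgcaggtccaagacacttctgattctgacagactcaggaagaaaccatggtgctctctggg
Hbb-bs: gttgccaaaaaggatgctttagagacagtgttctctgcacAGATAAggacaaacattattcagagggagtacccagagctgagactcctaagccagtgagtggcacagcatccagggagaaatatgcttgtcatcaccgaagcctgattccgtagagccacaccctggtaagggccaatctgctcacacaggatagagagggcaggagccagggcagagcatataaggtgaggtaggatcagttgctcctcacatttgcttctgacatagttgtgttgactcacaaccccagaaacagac
Alas2: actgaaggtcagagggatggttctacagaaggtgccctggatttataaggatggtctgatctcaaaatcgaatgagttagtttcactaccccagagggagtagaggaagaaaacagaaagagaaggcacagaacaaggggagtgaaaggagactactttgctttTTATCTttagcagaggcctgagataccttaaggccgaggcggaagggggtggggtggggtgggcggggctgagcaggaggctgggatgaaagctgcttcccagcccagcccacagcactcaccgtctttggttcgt

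Other red blood cell genes encode membrane and metabolic proteins. Slc4a1, the band 3 anion exchanger of the red cell membrane, had 768 and 963 scaled counts in KO GV and 0 in both KO GVBD libraries, at least 210-fold lower against a floor of 3 counts per library (adjusted p = 0.00168). Car2, a carbonic anhydrase, and Slc25a37, the mitochondrial iron importer mitoferrin, also fell, with log2 fold changes of −4.49 and −3.98. Summed over the 10 genes, KO GV held 160063 and 242228 scaled counts and KO GVBD 288 and 353.

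Platelet transcripts fell in the same libraries. Ppbp, a chemokine precursor of platelet granules, had 2063 and 447 scaled counts in KO GV and 0 in both KO GVBD libraries, at least 304-fold lower (adjusted p = 0.0213). Nrgn, a calmodulin-binding protein of neurons and platelets, was at least 167-fold lower, Tubb1, the platelet beta-tubulin, at least 67-fold, and Gp9, a subunit of the von Willebrand factor receptor, at least 57-fold. Gng11 and Rgs18, which act in G protein signalling, were at least 58-fold and 55-fold lower. Pf4, platelet factor 4, had 493 and 202 in KO GV and 0 and 5.51 in KO GVBD (log2 fold change −6.72 ± 0.98, adjusted p = 0.04997). Of the 7 genes, 6 were at 0 in both KO GVBD libraries, and the summed scaled counts were 5089 and 1466 in KO GV and 0 and 5.51 in KO GVBD. KO GV replicate 1 held more than replicate 2 for 6 of these genes, the exception being Rgs18 with 177 and 279. With TMM scaling none of the 7 passed, and 7 of the 10 red blood cell genes did.

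**Figure D2:**
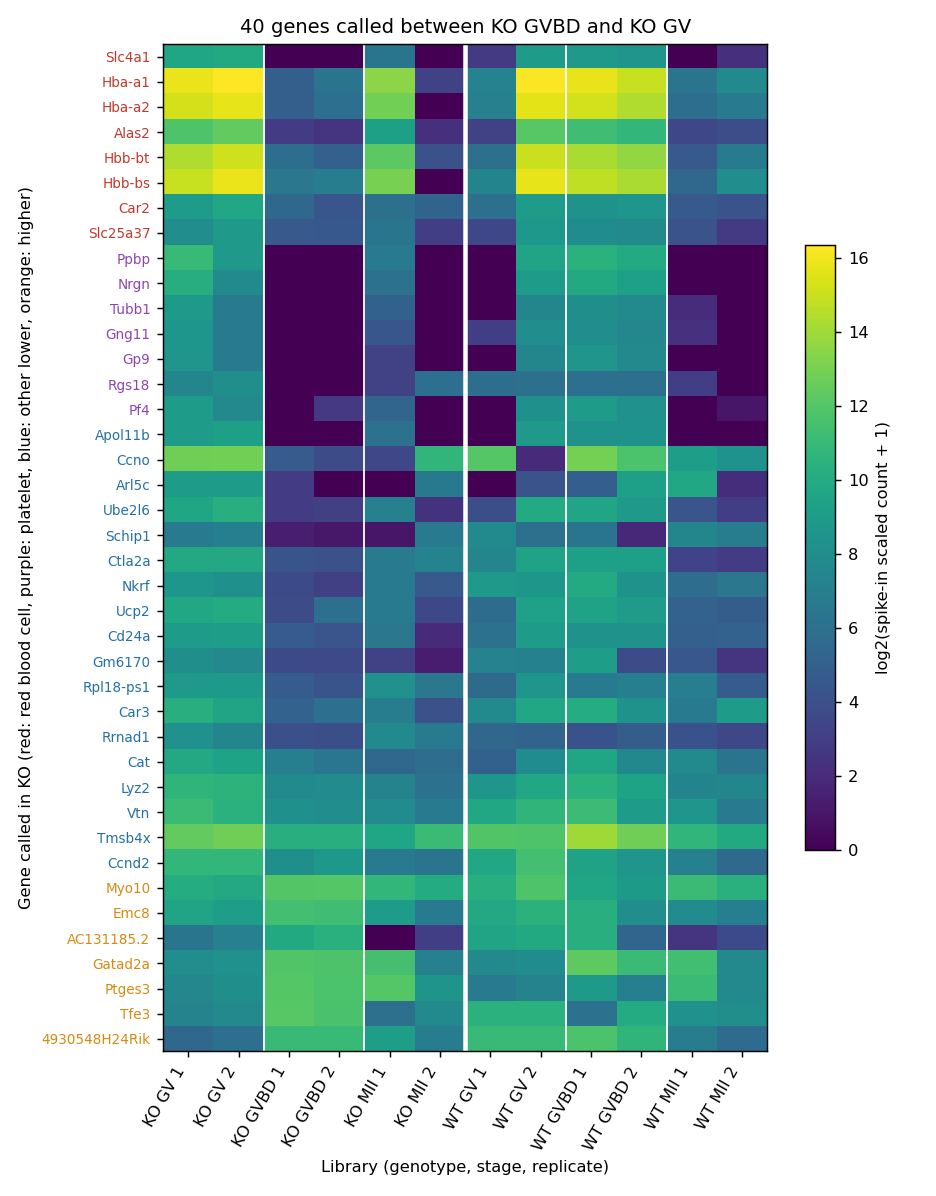
Of the 42 genes called between KO GVBD and KO GV, the 40 reported here (rows, coloured by role group) in each of the 12 libraries (columns); the colour scale is log2 of the scaled count plus 1. Red blood cell and platelet genes are high in both KO GV libraries and low or at 0 in both KO GVBD libraries, and also differ between the 2 libraries of WT GV and of KO MII.

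The same transcripts also differed between libraries of 1 group. Hba-a1 had 152 scaled counts in WT GV replicate 1 and 78452 in WT GV replicate 2, 57419 and 32187 in WT GVBD, 11494 and 7.88 in KO MII, and 76.6 and 212 in WT MII. On the scaled count plus 1, WT GV replicate 1 lay at least 10-fold below WT GV replicate 2 for 19 of the 35 lower genes, among them 9 of the 10 red blood cell and 6 of the 7 platelet genes. KO MII replicate 2 lay at least 10-fold below KO MII replicate 1 for 15 of the 35. Over tested genes with a mean of at least 100 scaled counts in the group, gaps in the same direction numbered 100 of 11732 in WT GV. In KO MII they numbered 112 of 9368. A list of 10 blood and platelet genes chosen for the check of other cell types, 8 of which are among the called genes, summed to 162153 and 239860 scaled counts in KO GV and to 227 and 302 in KO GVBD. All 10 lay lower in both KO GVBD libraries, against 28.1% of all tested genes, and 8 passed the test, against 0.184% called lower overall. Because the list was chosen with earlier results of these data known and shares these 8 genes, the counts are no independent check. Ppbp was among the 2 at 0 in both KO GVBD libraries. Gp1ba and Itga2b, the 2 that did not pass, encode platelet receptor subunits and had log2 fold changes of −4.95 ± 1.42 (adjusted p = 0.452) and −7.76 ± 1.28 (adjusted p = 0.0927). The median log2 fold change of the list was −9.54, or −8.51 with genes at 0 placed at their bound. The part of blood cells or of their free RNA in these decreases was not tested.

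Most liver genes also lay lower in KO GVBD, but they did not follow the blood genes library by library. The 12 liver genes, which include albumin (Alb), apolipoproteins and transthyretin (Ttr), summed to 45524 and 20223 scaled counts in KO GV and to 8713 and 72.7 in KO GVBD, and 10 of the 12 lay lower in both KO GVBD libraries, against 28.1% of all tested genes. None passed the test (lowest adjusted p = 0.515, 3 at an unadjusted p under 0.05). Alb had 25629 and 12057 scaled counts in KO GV and 4007 and 11.0 in KO GVBD (log2 fold change −3.23 ± 1.58). The same genes summed to 34205 and 99.2 in WT GVBD and to 43.9 and 126 in WT GV, so replicates of 1 group stood further apart than the group means. In KO MII the liver genes summed to 99.1 and 4075, where the red blood cell genes summed to 32877 and 103. Trf and C3, which encode transferrin and complement C3 and are made in quantity by the liver, were also among the abundant genes lowest without overlap, at −3.54 ± 1.07 and −3.30 ± 0.62, and neither passed the test. The plot of summed red blood cell, platelet and liver genes by library shows these gaps.

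**Figure D3:**
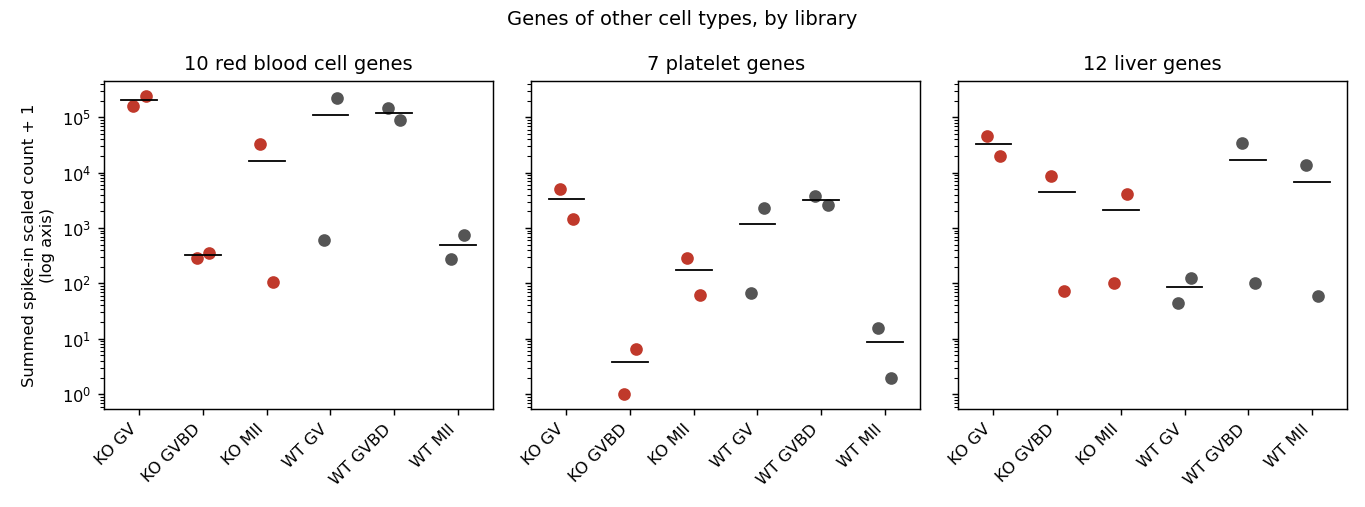
Summed scaled counts plus 1 (log axis) of the 10 red blood cell genes, the 7 platelet genes and the 12 liver genes in each library. Points are the 2 libraries of a group (red KO, grey WT) and lines their mean; KO GVBD holds 288 and 353 for red blood cell genes against 160063 and 242228 in KO GV, and 1 high and 1 low library are seen in WT GV and KO MII for red blood cell genes and in KO GVBD, KO MII, WT GVBD and WT MII for liver genes.

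Leukocyte markers differed less. Of 14 listed, 11 passed the filter on low counts, 8 of the 11 (72.7%) lay lower in both KO GVBD libraries, against 28.1% of all tested genes, and 1 fell by the test, against 0.184% of all tested genes. Lyz2, lysozyme of macrophages and neutrophils, had 1657 and 1523 scaled counts in KO GV and 222 and 238 in KO GVBD (log2 fold change −2.79 ± 0.33, adjusted p = 0.0185). The list summed to 4475 and 3436 in KO GV and 1439 and 1670 in KO GVBD, and Cd79b, of B cells, was at 0 in KO GVBD. The 9 keratin and epithelial genes summed to 1280 and 490 in KO GV and 329 and 379 in KO GVBD, and none of the 5 tested passed. The 13 cardiac muscle genes summed to 35424 and 29289 in KO GV and 22356 and 32773 in KO GVBD, and none passed. The part of these cell types in the results was not tested.

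Among the 18 other lower genes, Ccno stood out in level. Ccno (ENSMUSG00000042417, chromosome 13, 112987802 to 112990777, plus strand) encodes cyclin O, known from multiciliated cells, and had 7201 and 7549 scaled counts in KO GV and 24.7 and 12.1 in KO GVBD (log2 fold change −8.69 ± 0.44, adjusted p = 0.000188). WT GV had 4175 and 2.82 scaled counts and WT GVBD 7693 and 3409, and KO MII had 10 counts in replicate 1 against 1701 scaled counts in replicate 2. The gene was thus near 0 in 1 library of WT GV and 1 of KO MII as well, and the WT GV library in which it was near 0 was the one with high globin counts. Arl5c, an ARF-like GTPase, showed gaps of this kind too, with 508 and 495 in KO GV, 6.58 and 0 in KO GVBD, and 28.2 and 607 in WT GVBD.

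Several of the remaining lower genes have known roles outside the oocyte. Ube2l6, a conjugating enzyme for the ubiquitin-like protein ISG15, had 772 and 1283 scaled counts in KO GV and 6.58 and 7.71 in KO GVBD (log2 fold change −7.12 ± 0.54, adjusted p = 0.00168). Ctla2a, a cathepsin inhibitor, had 907 and 933 in KO GV and 18.1 and 15.4 in KO GVBD (−5.77 ± 0.45, adjusted p = 0.00168), against 173 and 683 at WT GV and 616 and 605 at WT GVBD. Apol11b was at 0 in both KO GVBD libraries and at least 136-fold lower. Cd24a, a surface antigen, Ucp2, a mitochondrial carrier, Car3, a carbonic anhydrase of muscle and fat, and Cat, catalase, fell, with log2 fold changes of −4.60, −4.62, −4.34 and −2.95. Vtn, vitronectin, a plasma adhesion protein, fell by 2.71.

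Tmsb4x and Ccnd2 fell by less and had clear counts at both stages. Tmsb4x, thymosin beta 4, which binds actin monomers, had 5564 and 7126 scaled counts in KO GV and 1209 and 1215 in KO GVBD (log2 fold change −2.39 ± 0.28, adjusted p = 0.0178), against 3819 and 3661 at WT GV and 16344 and 7052 at WT GVBD. The replicates of each KO group were close, and the difference from the WT change was −4.03 on the log2 scale (adjusted p = 0.0719). Ccnd2, cyclin D2, which drives G1 progression and is strong in granulosa cells, had 1832 and 1792 in KO GV and 283 and 410 in KO GVBD (−2.38 ± 0.34, adjusted p = 0.0467), and 834 and 2818 at WT GV and 675 and 367 at WT GVBD. Its change differed from that of WT by −0.57 on the log2 scale (adjusted p = 0.983).

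The other 5 lower genes are best read with their surroundings. Schip1 had 109 and 131 scaled counts in KO GV and 1 count in each KO GVBD library, a ratio of 92.7 with a 95% counting interval of 25.2 to 772 (adjusted p = 0.0479), while Iqschfp, a gene model that overlaps it, had 5.46 and 0 in KO GV and 75.6 and 90.3 in KO GVBD. Reads of the 2 models cannot be told apart with certainty from gene counts. Nkrf, a repressor of NF-kappa B targets, had 377 and 297 in KO GV and 11.5 and 7.71 in KO GVBD (log2 fold change −5.13 ± 0.57, adjusted p = 0.0154). Rrnad1, which overlaps Mrpl24, fell by 4.06 on the log2 scale, and Mrpl24 had 36719 and 33676 in KO GV and 37506 and 24003 in KO GVBD. Gm6170 and Rpl18-ps1 are processed pseudogenes and share sequence with their parent genes, so their counts are uncertain.

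The 7 genes that rose lay between 43.7 and 1101 scaled counts in KO GV and between 952 and 4310 in KO GVBD. Tfe3 (ENSMUSG00000000134, chromosome X, 7762560 to 7775202, plus strand), a transcription factor of lysosome and autophagy genes, had 158 and 205 scaled counts in KO GV and 4310 and 3178 in KO GVBD (log2 fold change 4.36 ± 0.34, adjusted p = 0.00168). Ptges3 (ENSMUSG00000071072, chromosome 10, 128058954 to 128077272, plus strand), the HSP90 co-chaperone p23, had 191 and 281 in KO GV and 4124 and 3407 in KO GVBD (3.99 ± 0.34, adjusted p = 0.00237). Gatad2a (ENSMUSG00000036180, chromosome 8, 69907076 to 69996384, minus strand), a subunit of the NuRD chromatin remodelling complex, had 255 and 306 in KO GV and 3823 and 3523 in KO GVBD (3.71 ± 0.30, adjusted p = 0.00209). In each of these 3 genes the KO groups did not overlap and replicates lay close together.

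Their course in WT was not the same for all. Gatad2a had 201 and 240 scaled counts at WT GV and 5078 and 2253 at WT GVBD, a log2 fold change of 4.06 that did not pass the test in WT (adjusted p = 0.0959), and the genotype difference was −0.35 (adjusted p = 0.99). Tfe3 had 1411 and 1355 at WT GV and 68.4 and 1073 at WT GVBD, and the genotype difference of 5.63 did not pass (adjusted p = 0.386). Ptges3 had 103 and 157 at WT GV and 445 and 133 at WT GVBD, with a genotype difference of 2.84 (adjusted p = 0.391). Within KO MII, Ptges3 had 4145 and 357 and Gatad2a 2925 and 140, so these genes also differed between replicates of a later group.

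Myo10, Emc8, AC131185.2 and 4930548H24Rik completed the group. Myo10, an unconventional myosin of filopodia that also binds microtubules, had 1101 and 921 scaled counts in KO GV and 3965 and 4104 in KO GVBD (log2 fold change 2.00 ± 0.27, adjusted p = 0.0417). Emc8, a subunit of the ER membrane protein complex, had 730 and 536 in KO GV and 2836 and 2621 in KO GVBD (2.11 ± 0.31, adjusted p = 0.04997), and its overlapping neighbour Cox4i1 had 19350 and 19781 in KO GV and 21021 and 17682 in KO GVBD. AC131185.2, a processed pseudogene within Armh3, had 80.1 and 139 in KO GV and 952 and 1308 in KO GVBD (3.36 ± 0.44, adjusted p = 0.033), while Armh3 had 797 and 717 in KO GV and 888 and 1020 in KO GVBD. Cox4i1 and Armh3 did not pass the test. With TMM scaling, Myo10 and AC131185.2 were the higher genes that no longer passed.

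4930548H24Rik (ENSMUSG00000029138, chromosome 5, 31485740 to 31488476, plus strand), a protein-coding gene model, rose the most. It had 43.7 and 61.2 scaled counts in KO GV and 2103 and 2133 in KO GVBD (log2 fold change 5.32 ± 0.38, adjusted p = 0.00118), against 2172 and 2172 at WT GV and 3328 and 1629 at WT GVBD. KO GV was the low group, and KO GVBD lay within the range of WT. The KO change exceeded the WT change by 5.13 ± 0.57 on the log2 scale (adjusted p = 0.044). The gene overlaps 4930566F21Rik on the other strand, which had 18052 and 12677 in KO GV and 7539 and 9254 in KO GVBD, and without known use of strand in the counting the reads of both cannot be told apart.

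**Figure D4:**
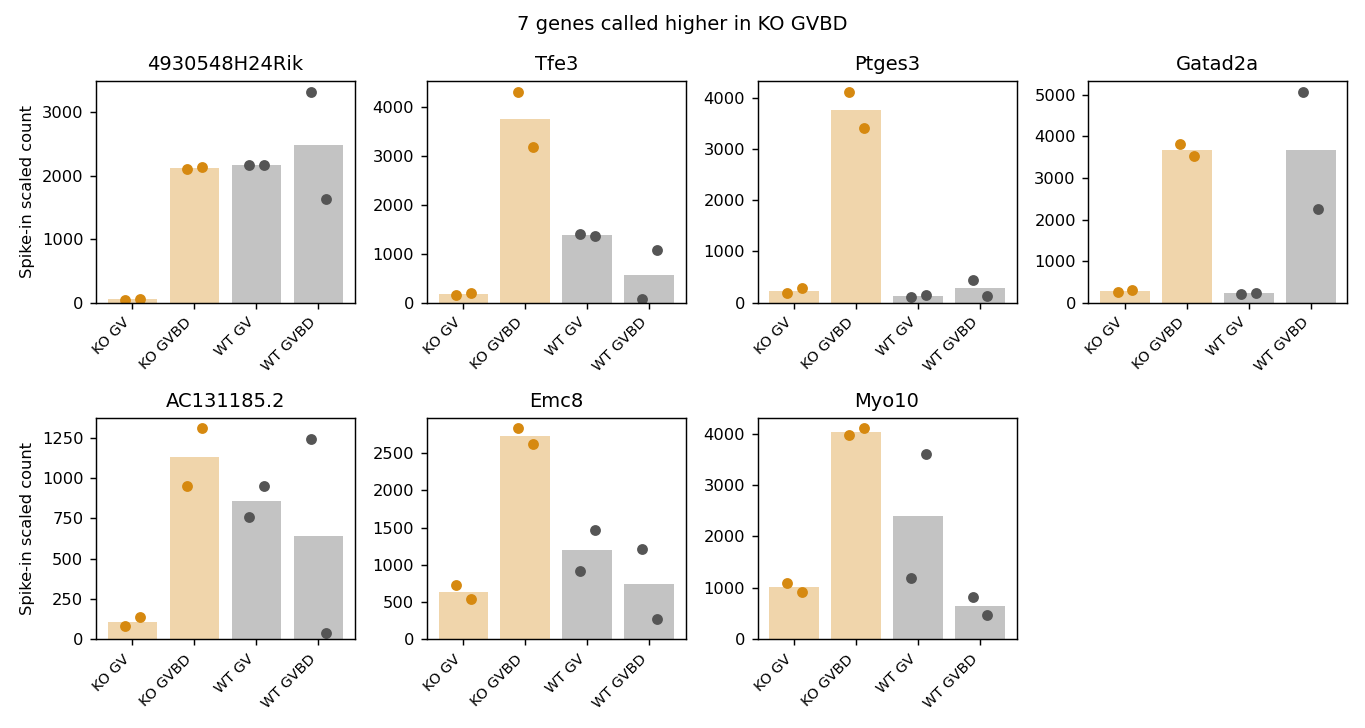
The 7 genes called higher in KO GVBD. Bars are the mean scaled count of the 2 libraries of a group and points the libraries (orange KO, grey WT), on axes that start at 0. KO GVBD lies above KO GV in every panel, and Gatad2a alone of these shows both WT GVBD libraries well above both WT GV libraries.

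The change from GV to GVBD was set against the same step in WT. There 10 of 19566 genes (0.0511%) passed the test, 8 higher and 2 lower, and none of the 42 genes called in KO was among them. Fut10, a fucosyltransferase, was among the higher genes, with 20.2 and 36.7 scaled counts at WT GV and 8711 and 4562 at WT GVBD, against 63.7 and 7.66 in KO GV and 26.3 and 15.4 in KO GVBD. Ucp1, of brown fat, was called lower in WT, and the skin keratins Krt1, Krt5 and Krt14, at 0 in all 4 KO libraries, were called higher. The genotype difference in the change passed for 2 of 21371 genes (0.00936%), 4930548H24Rik and the microRNA gene Mir7035. All 10 red blood cell genes had an unadjusted p under 0.05 for this difference, as had 1579 of all 21371 tested genes. The lowest adjusted p among the 10 was 0.386. The 10 were selected by the KO change, which is part of this difference, so their count is no separate support for it. For 34 of the 35 lower genes, both WT GVBD libraries lay above both KO GVBD libraries. These genes were selected as low in KO GVBD, so that count is no test of a genotype difference. The share over all tested genes was not computed.

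No gene on the list of the CDK1 switch, which drives meiotic entry, passed the test, where 0.22% of all tested genes did. The 22 genes of the CDK1 switch comprise cyclins, CDC25 phosphatases, WEE kinases and Greatwall, and their median log2 fold change was 0.23 against −0.15 over all tested genes. Ccnb1, cyclin B1, had 58346 and 45068 scaled counts in KO GV and 52632 and 36252 in KO GVBD (log2 fold change −0.22 ± 0.30). Wee2, the oocyte kinase that inhibits CDK1, had 25666 and 22516 in KO GV and 43687 and 21974 in KO GVBD (0.45 ± 0.35). Arpp19, a Greatwall substrate that restrains the phosphatase PP2A, had 22338 and 22328 in KO GV and 13503 and 17986 in KO GVBD (−0.50 ± 0.27), lower without overlap. Of the 22 genes, 3 (13.6%) lay lower and 5 (22.7%) higher without overlap, against 28.1% and 12.5% of all tested genes. For a test on 2 libraries each, these values do not show that the levels were equal.

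Genes of cAMP arrest, translation and decay gave no call, where 0.22% of all tested genes were called. Without overlap, 2, 6 and 10 of the 3 lists lay lower (14.3%, 20% and 26.3%), against 28.1% of all tested genes. Higher were 3, 7 and 6 (21.4%, 23.3% and 15.8%), against 12.5%. Of the 14 cAMP genes, whose most abundant members were Akap7, Gnas and Gja4, the lowest was Akap1, an anchor of protein kinase A at mitochondria, with 2279 and 2002 scaled counts in KO GV and 618 and 414 in KO GVBD (log2 fold change −2.05 ± 0.33, adjusted p = 0.0879). It was picked out after its values were seen, as was Pabpc1 among the 30 translation genes. Pabpc1, the cytoplasmic poly(A)-binding protein, had 2294 and 1634 in KO GV and 492 and 543 in KO GVBD (−1.92 ± 0.32, adjusted p = 0.0968). The most abundant translation genes, Zar1l, Eif4e and Zar1, overlapped between the groups, Zar1l with 53991 and 47852 in KO GV and 51728 and 42771 in KO GVBD. Among the 38 decay genes, Btg4, the adaptor of maternal mRNA deadenylation, had 149244 and 127043 in KO GV and 155745 and 98806 in KO GVBD, and Cnot7 and Cnot4, of the CCR4-NOT complex, gave no call either. The list medians were −0.11, 0.07 and −0.05, and with TMM scaling 0.03, 0.23 and 0.08.

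The m6A enzymes and readers were also without a call, beside 0.22% called over all tested genes. All 24 tested of 25 listed did not pass, the median log2 fold change was −0.00, and without overlap 4 lay lower (16.7%, against 28.1% of all tested genes) and 6 higher (25%, against 12.5%). Hnrnpc had 37018 and 31383 scaled counts in KO GV and 28288 and 25271 in KO GVBD, Wtap, a subunit of the methyltransferase complex, 15164 and 10909 against 8398 and 12527, and the reader Ythdf2 8009 and 5996 against 5306 and 5004. For the machinery of nuclear breakdown, the median was 0.03 over 41 tested nuclear envelope genes, 0.11 over 35 spindle genes and 0.03 over 44 checkpoint and APC/C genes, with no call in any. Pttg1, securin, had 249016 and 229009 in KO GV and 263963 and 191705 in KO GVBD. The spindle factor Tpx2 had 27807 and 20394 in KO GV and 10749 and 17893 in KO GVBD, lower without overlap. Tacc3, on the same list, had 13924 and 15099 against 18903 and 15323, higher without overlap. Of the 35 spindle genes, 5 (14.3%) lay lower and 7 (20%) higher without overlap, against 28.1% and 12.5% of all tested genes.

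Oocyte identity and its transcription factors gave no call, beside 0.22% called over all tested genes. Ooep, of the subcortical maternal complex, had 293346 and 216438 scaled counts in KO GV and 243209 and 198082 in KO GVBD (log2 fold change −0.21 ± 0.29). Dppa3 had 516767 and 439392 in KO GV and 354719 and 369880 in KO GVBD, and Omt2a 184323 and 161922 against 211286 and 136449. Among the transcription factors, Esrrb had 18955 and 17908 in KO GV and 10312 and 13608 in KO GVBD (−0.62 ± 0.27, adjusted p = 0.64), Nobox 20051 and 18706 against 16424 and 14641, and Sall4 6409 and 5238 against 8236 and 7278. Esrrb and Nobox lay lower and Sall4 higher without overlap between groups, and none passed. Of the 11 transcription factors tested, 4 (36.4%) lay lower and 3 (27.3%) higher without overlap, against 28.1% and 12.5% of all tested genes. The list medians were 0.03 over 20 identity genes and −0.02 over 11 transcription factors (0.14 and 0.15 with TMM scaling).

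The lists of energy and protein synthesis moved little. Ribosomal protein genes (89 tested) had a median log2 fold change of −0.09 and oxidative phosphorylation genes (95 tested) one of −0.16, near the −0.15 of all tested genes. No member passed, beside 0.22% called over all tested genes. With TMM scaling the medians were 0.04 and −0.06. Rpl35, of the large ribosomal subunit, had 103795 and 93402 scaled counts in KO GV and 33240 and 84464 in KO GVBD (log2 fold change −0.74 ± 0.41), against 103662 and 92171 at WT GV and 23568 and 18139 at WT GVBD. Its genotype difference was not called. Of the oxidative phosphorylation genes 31 of 95 (32.6%) lay lower without overlap, against 28.1% of all tested genes, and 3 (3.16%) higher against 12.5%.

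Immediate early genes, which cells induce within minutes of stimulation or dissociation, had a median log2 fold change of −1.54 over the 20 tested of 21. Of these, 14 (70%) lay lower in both KO GVBD libraries, against 28.1% of all tested genes, none lay higher, against 12.5%, and none passed the test (lowest adjusted p = 0.249). Their counts were low. Nr4a1 had 118 and 171 scaled counts in KO GV and 19.7 and 18.7 in KO GVBD (log2 fold change −2.90 ± 0.63, adjusted p = 0.249), Jun 126 and 75.3 against 19.7 and 26.4 (−2.10 ± 0.70), and Klf2 115 and 44.7 against 9.87 and 12.1 (−2.83 ± 0.88), these 3 being chosen after their values were seen. The 3 most abundant, Btg1, Btg2 and Dusp1, differed less, with 1160 and 841 in KO GV and 727 and 814 in KO GVBD for Btg1. In WT the list median was 0.29.

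**Figure D5:**
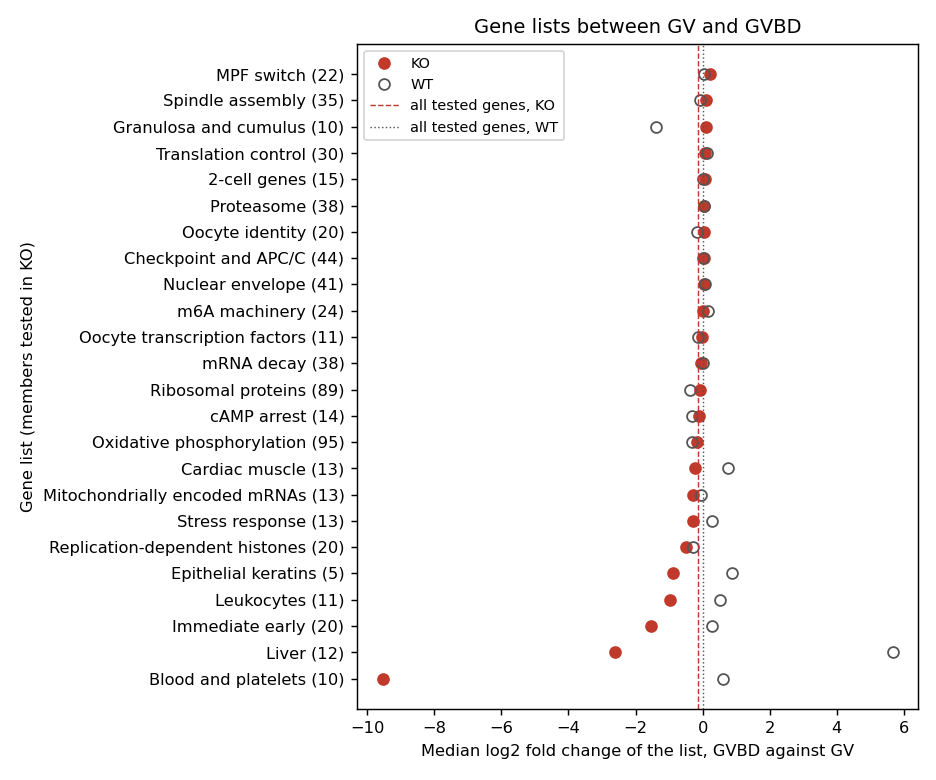
Median log2 fold change from GV to GVBD of each of the 24 gene lists in KO (filled red) and WT (open grey), with the number of members tested in KO (in WT 5 for liver); dashed and dotted lines are the medians of all tested genes (−0.15 in KO, 0.01 in WT). The blood and platelet, liver and immediate early lists lie lowest in KO at −9.54, −2.60 and −1.54, and lists of oocyte functions lie near the line.

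Among abundant genes, 4121 of the 4201 tested with a mean of at least 1000 counts over the 4 KO libraries (98.1%) had a log2 fold change under 1 in size, and 12 were called. The next higher genes without overlap, none past the test, were Mdm2, the ubiquitin ligase of p53, with 404 and 1055 scaled counts in KO GV and 2154 and 2472 in KO GVBD (log2 fold change 1.66 ± 0.44, adjusted p = 0.413), Olfr214 at 1.28 ± 0.29, Lmbr1 at 1.27 ± 0.42, Satb1, a chromatin organiser, at 1.24 ± 0.42, and Ddx24, an RNA helicase, at 1.17 ± 0.45. On the lower side mt-Atp6, of the mitochondrial ATP synthase, stood at −2.82 ± 0.85 through 26456 counts in KO GV replicate 1 against 3461 in replicate 2 and 1117 and 3129 in KO GVBD, all scaled.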

How the data were processed

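Poly(A) RNA of pooled oocytes with ERCC spike-ins was amplified by a SMART-seq type protocol. The protocol in the deposited labels describes another extraction, from bulk cells. The authors deposited whole-number counts per gene, 56691 genes and 92 ERCC sequences in 12 libraries. Their notes name cutadapt 1.9, HISAT2 2.0.4, StringTie 1.3.4d, DESeq2, edgeR and the build mm10; the use of strand and the step to whole counts are not given in the sources used here. Symbols and positions came from GENCODE M21 for 91.9% of genes.

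Counts were tested with the quasi-likelihood test of edgeR 4.0.16 in R 4.3.3 on the 4 KO libraries, two-sided, with library sizes in proportion to ERCC totals, filterByExpr and Benjamini-Hochberg adjustment over all tested genes. Genes were called at an adjusted p under 0.05 and a log2 fold change of at least 1 in size; standard errors are the log2 fold change divided by the root of F. The WT step and the genotype difference (interaction over 8 libraries) were fitted likewise. The test was also run on counts simulated from dispersions fitted to the 4 KO libraries, with changes set in well-expressed genes. Large gaps between replicates of a group, as seen for the globins, were not built in. The run therefore does not show how the test behaves with them. Alternatives were TMM scaling, median-of-ratios scaling, only those ERCC sequences that reached 10 counts in each library, no filter, at least 10 counts in every library, DESeq2 1.42.0, all 12 libraries, no fold minimum, a replicate block and each library left out. TMM and median-of-ratios counts of genes without overlap were added after seeing the data.

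Members and gene lists were chosen with earlier results of these data known. Named genes were all called genes but 2, which enter counts and sums and are not reported here by name, those called in WT or in the genotype difference, the called and 3 most abundant members of each list, the 10 highest and 10 lowest genes without overlap among those with a mean of at least 1000 counts, Alkbh5 and Actb. Gp1ba, Itga2b, Akap1, Pabpc1, Nr4a1, Jun, Klf2, Hspa5, Cd79b, Tnnt2, Actc1, Ankrd1, the overlapping neighbours and the embryonic globins were named after their values were seen. No source says that the 2 pools of a group came from separate animals, so p-values measure the spread between these libraries, which may be technical. Intervals and floors cover counting error only. Columns mapped to samples by genotype, stage and number in their names.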

Additional observations from a re-analysis of the deposited data

Results flagged for a closer look

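The change from GV to GVBD differed between the genotypes for 2 genes by edgeR's interaction test. For 4930548H24Rik the KO change exceeded the WT change by 5.13 on the log2 scale (adjusted p = 0.044); the adjusted p was 0.0903 with a replicate block, 0.592 with all 12 libraries in one model, and 0.107 to 0.245 when a KO library was left out. Both KO GVBD libraries lay above both KO GV libraries, while WT GV and WT GVBD overlapped.

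For Mir7035, a microRNA gene on chromosome 5 (136105522 to 136105603), the difference was 8.74 (adjusted p = 0.0177), and it came from WT. KO had 151 and 165 scaled counts at GV and 158 and 186 at GVBD (log2 fold change 0.12 ± 0.45), and WT had 616 and 351 at GV. WT GVBD held 2 counts in all against 768 in WT GV, a ratio of 464 with a 95% counting interval of 128 to 3840. The adjusted p of the difference was 0.0704 with a replicate block, 0.798 with all 12 libraries, 0.0889 without KO GV replicate 2, 0.109 without KO GVBD replicate 1, and 0.0559 and 0.0501 without WT GVBD replicate 1 or 2.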

How the results depend on the processing

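Counts of called genes moved widely with the processing, and the cause was not tested. Against 7 higher and 35 lower genes between KO GVBD and KO GV, TMM and median-of-ratios scaling each gave 13 lower genes, no filter 62 and 454, at least 10 counts in every library 18 and 107, DESeq2 24 and 201, all 12 libraries 0 and 1, and a replicate block 4 and 12. Leaving out 1 library gave 0 to 176 higher and 7 to 712 lower. Of the 42 called genes, TMM kept 18, DESeq2 42 and the replicate block 15. In WT, 10 calls became 3 with either scaling, 528 with no filter, 157 with at least 10 counts, 371 with DESeq2, 5 with all 12 libraries and 182 with the block, and 0 to 629 without 1 library. For the genotype difference, 2 became 635, 77, 239, 0 and 1 under no filter, at least 10 counts, DESeq2, all 12 libraries and the block, and 0 to 88 without 1 library. Genes higher without overlap numbered 4130 with TMM and 4024 with median-of-ratios against 2388. Leaving out 1 KO library moved the log2 fold change from −1.28 to 0.18 for Alkbh5, −0.51 to 0.03 for Ccnb1, −0.13 to 0.86 for Wee2 and −0.41 to 0.03 for Ooep, so that the direction reversed in 1 of 4 fits each, none of them called. Over 67 named genes and 648 alternatives, 418 values kept direction and side of the threshold, 186 lost the call, 40 gained it and 4 reversed.

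The labels do not say what a replicate number shares, and the libraries were not treated as paired: the correlation of replicate 1 minus replicate 2 between the stages was −0.024 in KO over 13252 genes and 0.161 in WT over 13672. With 2 libraries a group, a gene past the test in one fit and not in another is not shown to differ, and replicates of 1 group differed by at least 10-fold for 74 of 12570 genes in KO GV and 120 of 11770 in KO GVBD with a mean of at least 100 scaled counts.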

Other observations

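Lists of other functions gave no call in KO, beside 0.22% called over all tested genes. The median log2 fold change was 0.05 over 38 proteasome genes, 0.06 over 15 genes of the 2-cell stage, −0.29 over 13 mitochondrially encoded mRNAs and −0.49 over 20 tested of 68 replication-dependent histone genes. Obox2, a homeobox gene stored in the oocyte, had 301983 and 281298 scaled counts in KO GV and 245283 and 241873 in KO GVBD. Hist1h1c, a linker histone, had 921 and 200 in KO GV and 21.4 and 93.6 in KO GVBD (log2 fold change −3.26 ± 0.87, adjusted p = 0.413 by edgeR). Among 13 stress genes, whose median was −0.29, Hspa5, the chaperone BiP of the endoplasmic reticulum, had 4817 and 3920 in KO GV and 2024 and 1320 in KO GVBD (−1.39 ± 0.31, adjusted p = 0.274 by edgeR), while Hsp90aa1, the cytosolic HSP90, had 252778 and 220625 in KO GV and 272706 and 184185 in KO GVBD.

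In the cardiac list, KO GVBD replicate 1 stood far below replicate 2 for several genes, though not for all. Myh6, the cardiac myosin heavy chain, had 1793 and 1142 scaled counts in KO GV and 1.64 and 2425 in KO GVBD. In KO GVBD, Tnnt2 had 0 and 1097, Actc1 0 and 633 and Ankrd1 0 and 751. Tnni3, which gave most of the list's sum there, had 19614 and 21473. Krt18, an epithelial keratin, had 211 and 48.5 in KO GV and 0 in both KO GVBD libraries, and did not pass the test (adjusted p = 0.114 by edgeR).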
